A study of Rattus norvegicus with 8 samples.

Results

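A set of 10 endothelial identity and junction genes were examined in rat vessels, and they were fixed by name as Pecam1, Cdh5, Vwf, Cldn5, Eng, Emcn, Egfl7, Esam, Sox17 and Sox18. The expression array carried probes for transcripts of 9 of the 10 genes, as 10 of the 45598 gene probes, and no probe could be matched to Egfl7. Of the genes, 8 were bright enough to be tested, among 24552 tests over the whole array. RNA came from vessels of hypertensive male rats and control male rats, with 4 arrays per group. The 4 samples of a group are numbered as replicates, and the labels do not say that each came from a separate animal, so p-values measure the spread between these samples. The control rats were Wistar-Kyoto, a normotensive laboratory strain, and the strain entry of the hypertensive rats also reads Wistar-Kyoto although the study's title calls them a hypertensive disease model. The age of the animals, the cause of the hypertension and the vessel taken are not given in the sources used here. The comparison asks how these endothelial transcripts differed between hypertensive and control vessels.

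Endothelial cells line the lumen of every vessel and hold together through adherens junctions, built on VE-cadherin, and tight junctions, built on claudins. In arteries they form a thin sheet on a thick wall of smooth muscle, so their transcripts report a small share of the cells in a piece of vessel. SOX and ETS transcription factors maintain their identity, and flowing blood sets the level of KLF factors in them. In bulk tissue of this kind, fewer endothelial cells and less of a transcript per endothelial cell cannot be told apart.

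Promoter sequence was available in the RefSeq table (build GRCr8, 250 bases before to 50 after the start of the gene) for 4 of the 10 genes, Cldn5, Eng, Emcn and Egfl7. The 3 of these that were tested are shown because Cldn5 and Eng were the genes whose hypertensive and control arrays did not overlap, with Emcn beside them. Capitals mark exact matches, on either strand, to 4 short motifs, AGGAAG of ETS factors, ACAAT of SOX factors, CACCC of KLF factors and the CCAAT box, the last added after the sequences had been read.
Cldn5 promoter, chr11:95718549-95718848, minus strand: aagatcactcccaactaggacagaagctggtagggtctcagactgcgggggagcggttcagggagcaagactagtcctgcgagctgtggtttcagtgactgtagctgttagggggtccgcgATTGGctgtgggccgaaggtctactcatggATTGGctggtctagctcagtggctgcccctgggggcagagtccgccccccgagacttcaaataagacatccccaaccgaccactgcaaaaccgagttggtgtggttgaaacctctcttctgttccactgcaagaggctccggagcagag
Eng promoter, chr3:36332029-36332328, plus strand: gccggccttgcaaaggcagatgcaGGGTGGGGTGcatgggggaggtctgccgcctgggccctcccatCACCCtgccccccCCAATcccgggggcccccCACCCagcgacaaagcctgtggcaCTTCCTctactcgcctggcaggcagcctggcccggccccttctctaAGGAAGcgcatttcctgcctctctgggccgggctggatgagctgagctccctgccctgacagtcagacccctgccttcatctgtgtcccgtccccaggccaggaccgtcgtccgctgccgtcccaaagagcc
Emcn promoter, chr2:228564289-228564588, plus strand: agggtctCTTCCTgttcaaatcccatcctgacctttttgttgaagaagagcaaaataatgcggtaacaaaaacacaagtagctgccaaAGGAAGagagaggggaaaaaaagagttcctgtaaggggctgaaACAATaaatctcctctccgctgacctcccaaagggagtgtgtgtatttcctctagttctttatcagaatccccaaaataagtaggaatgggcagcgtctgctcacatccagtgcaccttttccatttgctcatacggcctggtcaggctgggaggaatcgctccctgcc
The Cldn5 window held 2 CCAAT boxes and no match to the other motifs. The Eng window held 4 KLF matches, 2 of them directly adjacent, 2 ETS matches and 1 CCAAT box. The Emcn window held 2 ETS matches and 1 SOX match. Of 33469 promoter windows of the same length, 34.5% held the ETS motif, 33.7% the SOX motif, 54.9% the KLF motif and 37.5% the CCAAT box, so such matches are common.

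No gene of the 8 tested passed an adjusted p under 0.05 (limma, Benjamini-Hochberg over all tests), where 4.53% of all 24552 tests did. The claudin gene Cldn5, the endoglin gene Eng and the transcription factor gene Sox18 had lower means in hypertensive vessels, at 74.3%, 80.0% and 74.9% of the control level. The von Willebrand factor gene Vwf had a higher mean, at 138% of the control level on the brighter of its probes, with a log2 difference of 0.46 there and 0.10 on the other probe. At an unadjusted p under 0.05, 4 of the 8 differed (Cldn5, Eng, Sox18 and Vwf), against 20.3% of all tests, and 3 of the 8 were lower at that p, against 8.02% of all tests. The hypertensive and control arrays did not overlap for 2 of the 8, Cldn5 and Eng, and for 13.6% of all tests. Both lay lower in hypertensive vessels, as did 5.78% of all tests, while 7.84% were non-overlapping and higher. The median log2 difference of the 8 genes, hypertensive minus control, was -0.10, against 0.04 over all tests, and 4 of the 8 lay below 0. Levels below are log2 signal relative to the 75th percentile of the array, and the ± after a difference is its standard error in limma. Each of the 8 genes was well above background on all 8 arrays, so the vessels carried endothelial transcripts in both groups.

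**Figure D1:**
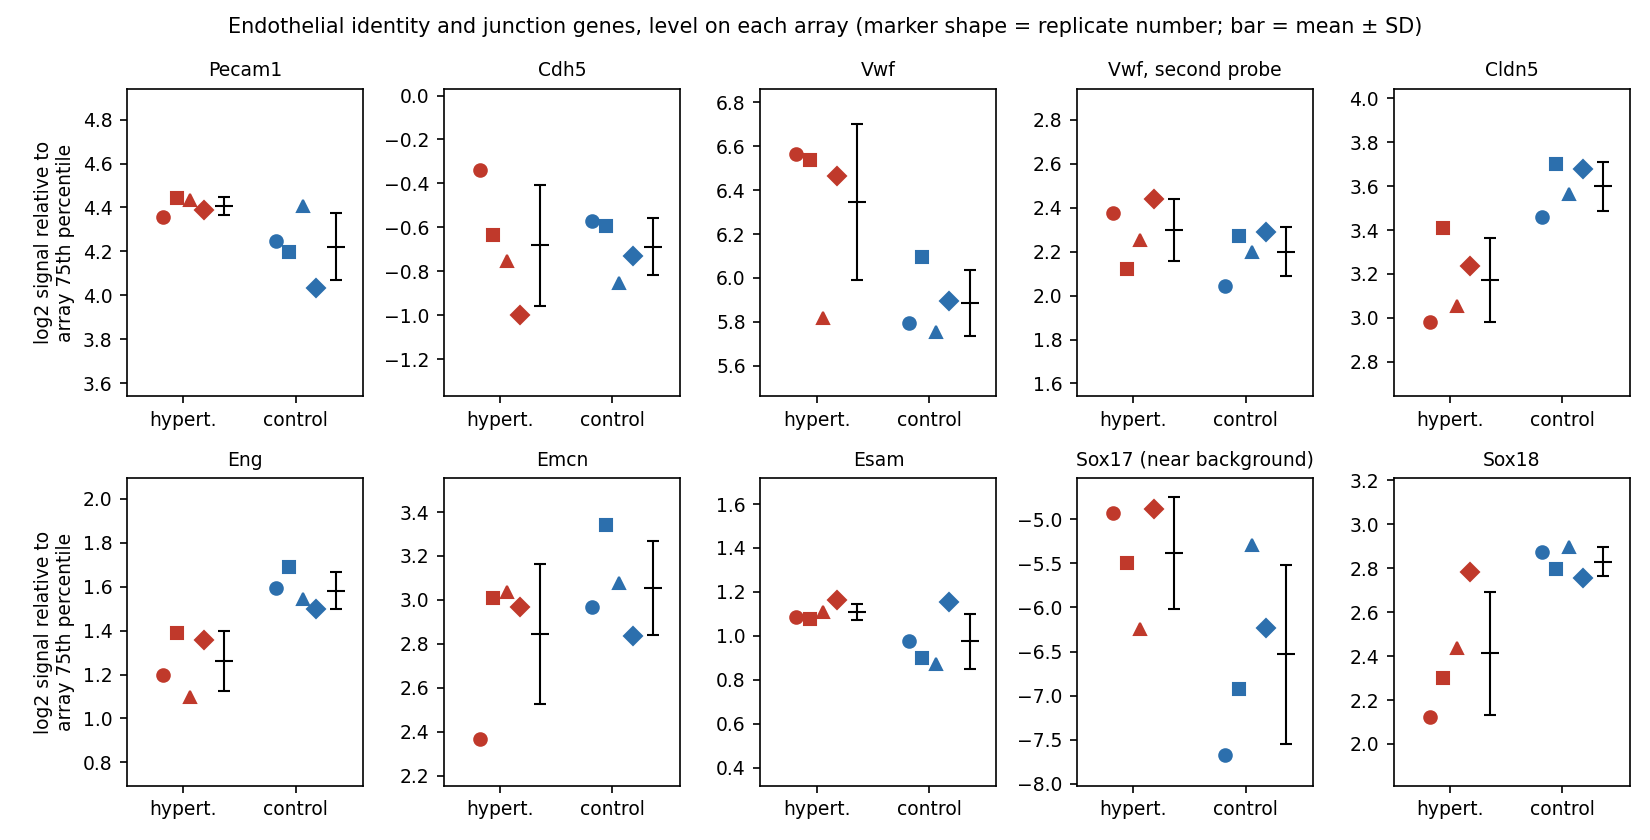
Level of each endothelial gene on each array, as log2 signal relative to the 75th percentile of the array (vertical axes, with a different range for each gene), for 4 hypertensive arrays (left, red) and 4 control arrays (right, blue). Marker shape gives the replicate number and the bar the mean ± SD. The groups are apart for Cldn5 and Eng and overlap for the other tested genes, and Sox17 lies near background.

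Cldn5 encodes the main claudin of endothelial tight junctions, which seal the cleft between neighbouring cells. Its level was 2.98, 3.41, 3.06 and 3.23 in hypertensive replicates 1 to 4, against 3.46, 3.70, 3.56 and 3.68 in control replicates 1 to 4. Every hypertensive array lay below the lowest control array, although hypertensive replicate 2 came close to control replicate 1. The difference was -0.43 ± 0.11 (95% interval -0.68 to -0.17, adjusted p = 0.071). Under normexp background correction and under quantile normalization the adjusted p was 0.0216 and 0.0486, and over all 20 alternatives it ran between 0.0216 and 0.168, with differences of -0.51 to -0.37.

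Esam, an immunoglobulin-family adhesion molecule found at endothelial tight junctions and on platelets, had a slightly higher mean in hypertensive vessels. Its level was 1.09, 1.08, 1.11 and 1.16 in hypertensive replicates 1 to 4, against 0.98, 0.90, 0.87 and 1.15 in control replicates 1 to 4. The groups overlapped through control replicate 4. The difference was 0.13 ± 0.09 (95% interval -0.06 to 0.33, adjusted p = 0.421), which leaves room for a level between 96.0% and 125% of the control.

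Cdh5 encodes VE-cadherin, the adhesion molecule of endothelial adherens junctions. Its level was -0.34, -0.64, -0.76 and -1.0 in hypertensive replicates 1 to 4, against -0.57, -0.59, -0.85 and -0.73 in control replicates 1 to 4. The hypertensive arrays included both the highest and the lowest of all 8. The difference was 0.0051 ± 0.14 (95% interval -0.32 to 0.33, adjusted p = 0.990), so its sign carries no information and a level of 80.3% to 125% of the control fits the interval.

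Pecam1, or CD31, is a homophilic adhesion molecule at endothelial borders that platelets and leukocytes also carry. Its level was 4.36, 4.45, 4.44 and 4.39 in hypertensive replicates 1 to 4, against 4.25, 4.20, 4.40 and 4.03 in control replicates 1 to 4. The hypertensive arrays were close together, with an SD of 0.04 against 0.15 in the controls, and control replicate 3 lay among them. The difference was 0.19 ± 0.09 (95% interval -0.02 to 0.40, adjusted p = 0.303).

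Eng encodes endoglin, a co-receptor for ligands of the BMP and TGF-beta family on endothelial cells. Its level was 1.20, 1.39, 1.1 and 1.36 in hypertensive replicates 1 to 4, against 1.59, 1.69, 1.54 and 1.50 in control replicates 1 to 4. As for Cldn5, all 4 hypertensive arrays lay below all 4 control arrays. The difference was -0.32 ± 0.09 (95% interval -0.53 to -0.11, adjusted p = 0.0929). The adjusted p was 0.0298 with normexp background correction and between 0.0298 and 0.221 over the 20 alternatives, with differences of -0.41 to -0.27.

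Emcn encodes endomucin, a sialomucin of the endothelial surface. Its level was 2.37, 3.01, 3.04 and 2.97 in hypertensive replicates 1 to 4, against 2.97, 3.34, 3.07 and 2.84 in control replicates 1 to 4. Hypertensive replicate 1 stood apart below the other 7 arrays, which overlapped. The difference was -0.21 ± 0.17 (95% interval -0.60 to 0.18, adjusted p = 0.536). It was -0.05 without hypertensive replicate 1 and -0.11 without control replicate 2.

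Vwf encodes von Willebrand factor, the glycoprotein that endothelial cells store in Weibel-Palade bodies and that binds platelets to damaged vessels. It was read by a pair of probes, both above background on all 8 arrays. On the brighter probe its level was 6.57, 6.54, 5.82 and 6.46 in hypertensive replicates 1 to 4, against 5.80, 6.10, 5.76 and 5.90 in control replicates 1 to 4. Of the hypertensive arrays, 3 lay above all controls, while hypertensive replicate 3 lay among the controls. The difference on that probe was 0.46 ± 0.17 (95% interval 0.07 to 0.85, adjusted p = 0.178), and without hypertensive replicate 3 it was 0.64 (adjusted p = 0.0208, in a range of 0.0208 to 0.629 over 21 alternatives). On the second probe the level was 2.38, 2.12, 2.26 and 2.44 in hypertensive replicates 1 to 4, against 2.04, 2.27, 2.20 and 2.29 in control replicates 1 to 4. There the groups overlapped and the difference was 0.10 (adjusted p = 0.629), and hypertensive replicate 3 did not stand apart, so the higher Vwf signal rested on 1 of the 2 probes.

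Sox18 encodes a SOX transcription factor of blood and lymphatic endothelium. Its level was 2.13, 2.30, 2.44 and 2.79 in hypertensive replicates 1 to 4, against 2.87, 2.80, 2.90 and 2.76 in control replicates 1 to 4. Of the hypertensive arrays, 3 lay below all controls, while hypertensive replicate 4 lay among them, and the SD was 0.28 in hypertensive against 0.06 in control vessels. The difference was -0.42 ± 0.14 (95% interval -0.73 to -0.11, adjusted p = 0.127). Without hypertensive replicate 4 it was -0.54 (adjusted p = 0.0213, in a range of 0.0213 to 0.253 over 20 alternatives). The related gene Sox17, known for a part in arterial endothelium, was well above background on 1 hypertensive array, replicate 4, and on no control array, and it was not tested. Its processed signal was 11.8, 8.67, 5.19 and 16.2 in hypertensive replicates 1 to 4, against 2.32, 3.34, 12.9 and 5.96 in control replicates 1 to 4, so no level of Sox17 was established in either group.

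**Figure D2:**
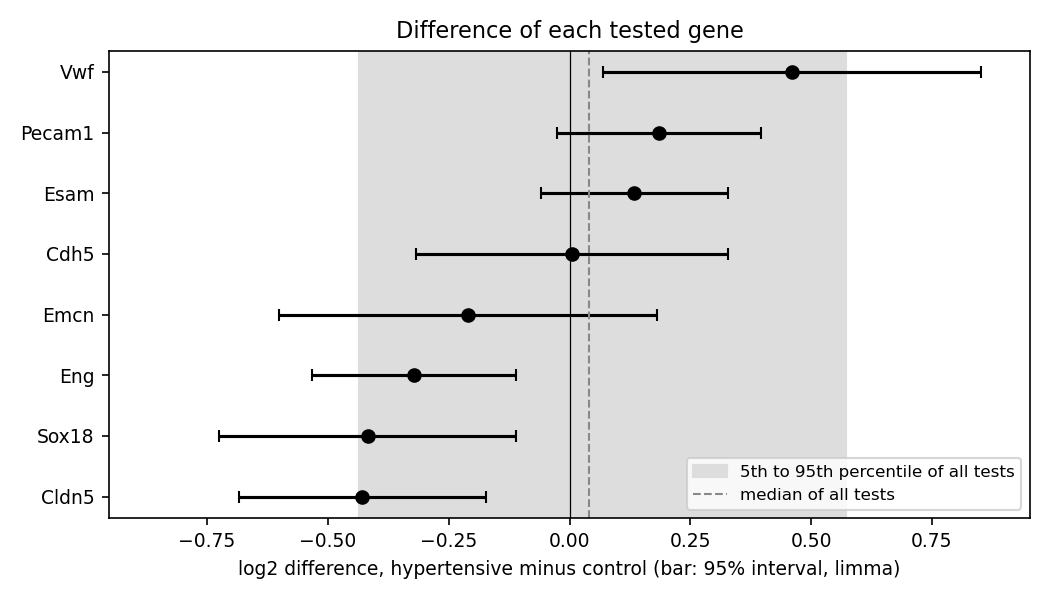
Log2 difference, hypertensive minus control, of the 8 tested endothelial genes (points) with 95% intervals from limma (bars, 4 arrays per group), ordered by size. The grey band spans the 5th to 95th percentiles of all 24552 tests, -0.43 to 0.57, and the dashed line is their median. The 8 differences run between -0.43 for Cldn5 and 0.46 for Vwf, and the intervals of Cldn5, Sox18, Eng and Vwf leave out 0.

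The 8 genes did not share 1 direction. To set each against a broad endothelial gene, its level on an array was taken relative to that of Pecam1 on the same array, and the groups were compared with a two-sided exact permutation test. This gives the difference between 2 changes, not between 2 levels. Relative to Pecam1, the log2 change was -0.61 for Cldn5, -0.60 for Sox18, -0.51 for Eng and -0.40 for Emcn, and for each of these 4 all hypertensive arrays lay below all control arrays. The exact permutation p was 0.0286 for each of the 4, the smallest that 4 arrays against 4 allow, and 0.05 after adjustment over the 7 genes compared, which does not pass a threshold of under 0.05. Of all other tests set against Pecam1 in the same way, 12.8% had every hypertensive array below every control array, and 14.8% had no overlap in either direction. The Pecam1 mean was itself 0.19 higher in hypertensive vessels, which lowers every value taken relative to it. Without control replicate 2 the Emcn value was -0.29, and without hypertensive replicate 1 it was -0.25. Relative to Pecam1, Cdh5 differed by -0.18 (exact permutation p = 0.371), Esam by -0.05 (exact permutation p = 0.771) and Vwf by 0.28 (exact permutation p = 0.2), with overlapping groups. The Vwf value is that of the brighter probe. It was 0.09 with the mean of both probes, -0.09 on the second probe and 0.17 to 0.46 with 1 array left out, the highest without hypertensive replicate 3. With 1 array left out the Cdh5 value ran between -0.31 and -0.08.

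**Figure D3:**
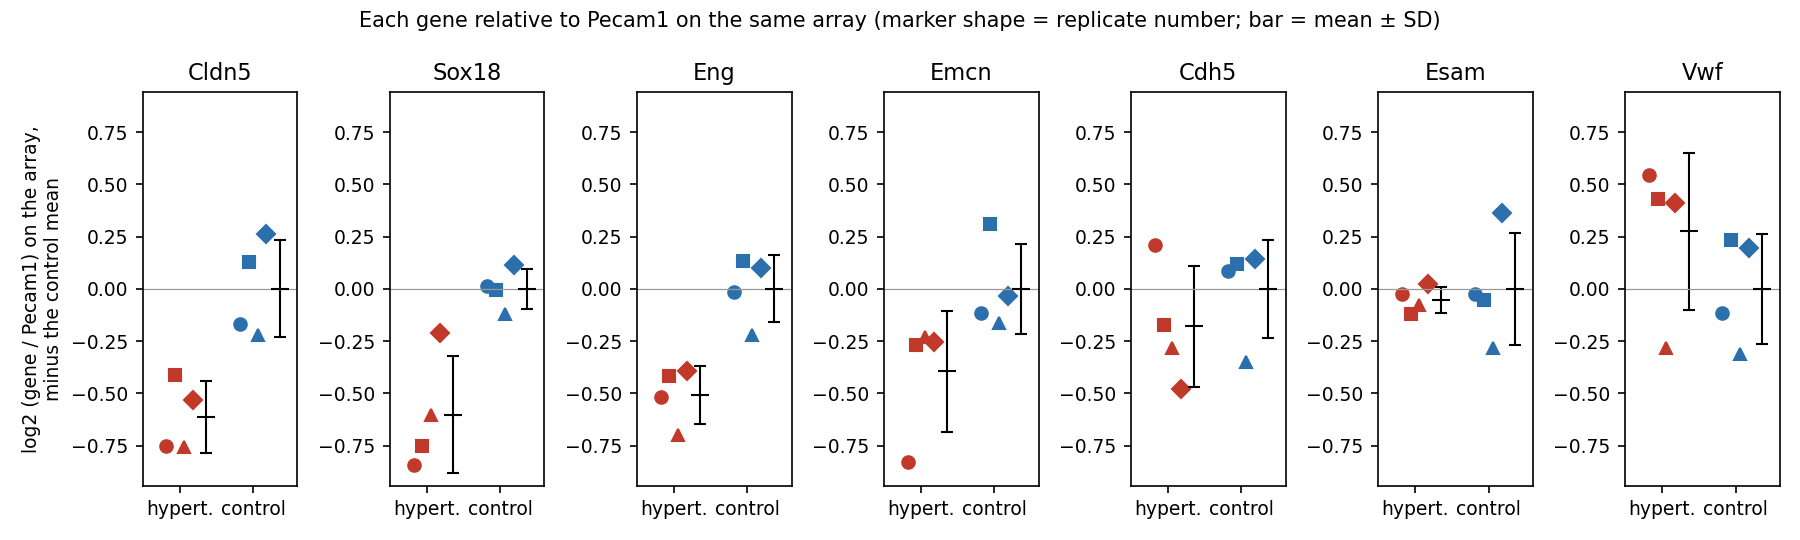
Log2 ratio of each gene to Pecam1 on the same array, minus the control mean (vertical axes, same range in all panels), for 4 hypertensive arrays (left, red) and 4 control arrays (right, blue), with the mean ± SD as bars and the replicate number as marker shape. Cldn5, Sox18, Eng and Emcn have all hypertensive arrays below all control arrays, by means of 0.40 to 0.61, and Cdh5, Esam and Vwf overlap.

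Within the groups the genes varied in different ways. Hypertensive replicate 1 was the lowest of all 8 arrays for Cldn5, Emcn and Sox18 and the highest for Cdh5 and Vwf. Hypertensive replicate 4 was the lowest for Cdh5 and the highest for Esam. Among the 28 pairs of the 8 genes, the deviations of the arrays from their group means correlated above 0 in 14, with a median Pearson r of 0.028 and a range of -0.88 to 0.73 over 8 arrays. The 10 other named genes whose deviations were most like the mean deviation of the 8 genes had Pearson r of 0.949 to 0.985 over 8 arrays, out of 11957 genes compared, and are given as a description with no test. Lrmda (0.985), Cbarp (0.979) and Slc35c1 (0.972) led them, followed by RT1-M3-1, Erlec1, F11r, Cryz, Mfsd10, Sgta and Sft2d1. F11r, which encodes a junctional adhesion molecule of tight junctions, had an r of 0.958 and a group difference of -0.16 ± 0.14 (adjusted p = 0.553). Of these 10 genes, Cryz, which encodes a quinone reductase, fell in hypertensive vessels (-0.92 ± 0.13, adjusted p = 0.00517).

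Other genes of the endothelium mostly did not pass the test, and those that did were lower in hypertensive vessels. Of 19 tested surface and secreted markers of endothelium, 1 fell and none rose, beside backgrounds of 1.91% lower and 2.61% higher among all tests, and the median difference was 0.08. The gene that fell was Apold1, an early response gene of endothelial cells, with levels of -1.10 ± 0.41 in hypertensive and 0.75 ± 0.68 in control vessels (SD, n = 4 each) and a difference of -1.85 ± 0.33 (adjusted p = 0.0173). That call was lost without hypertensive replicate 2 or control replicate 1 (adjusted p up to 0.053 over 19 alternatives). Plvap, the diaphragm protein of fenestrated endothelium, differed by 0.14 ± 0.12 (adjusted p = 0.533). Named after their values were seen, the endothelial nitric oxide synthase gene Nos3 differed by 0.30 ± 0.13, the VEGF receptor gene Flt1 by 0.43 ± 0.15 and Kdr by -0.08 ± 0.11, none past the threshold. Flt1, Nos3 and the apelin receptor gene Aplnr (0.78 ± 0.28, also named after its values were seen) were the other genes of the list at an unadjusted p under 0.05.

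Of 18 tested endothelial transcription factors, 2 fell and none rose, beside 1.91% lower and 2.61% higher among all tests. Their median difference was 0.04. Klf4, a flow-responsive factor also present in other wall cells, had levels of 4.19 ± 0.16 in hypertensive and 4.96 ± 0.23 in control vessels (SD, n = 4 each), a difference of -0.77 ± 0.13 (adjusted p = 0.0137). Klf2, the other flow-responsive factor, had levels of 0.80 ± 0.21 in hypertensive and 1.29 ± 0.07 in control vessels (SD, n = 4 each), a difference of -0.48 ± 0.11 (adjusted p = 0.0473). The Klf4 call was lost with the replicate block alone (adjusted p = 0.073), and the Klf2 call in 9 of 19 alternatives, among them the omission of any 1 array but hypertensive replicate 4 (adjusted p up to 0.126). The ETS factor gene Erg and the SOX factor gene Sox7, both named after their values were seen, differed by 0.02 ± 0.12 and 0.06 ± 0.15 (adjusted p = 0.929 and 0.857). Also named after their values were seen, the ETS factor gene Elk3 (-0.27 ± 0.09) and Tal1 (-0.28 ± 0.10) were at an unadjusted p under 0.05 and did not pass after adjustment.

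Partners of the junction proteins did not pass. None of 17 adherens junction partners of VE-cadherin was past the threshold, with a median difference of -0.02. Vasp, an actin regulator, differed by 0.12 ± 0.10 and Ptpn11, a phosphatase, by 0.02 ± 0.11. Of the 17, 2 were at an unadjusted p under 0.05, against 20.3% of all tests. Named after their values were seen, they were the beta-catenin gene Ctnnb1 (-0.27 ± 0.09, adjusted p = 0.123) and the nectin gene Nectin2 (-0.47 ± 0.17, adjusted p = 0.165). None of 15 tight junction genes besides Cldn5 passed, with a median of 0.02. Of the 15, 3 were at an unadjusted p under 0.05, against 20.3% of all tests. Their mean level was -0.08 to -0.03 in hypertensive and -0.03 to 0.03 in control arrays, with every hypertensive array below every control array by a small margin. That mean includes Marveld2, given below, which was well above background on 0 hypertensive arrays, so the margin does not describe the list as a whole. Of the 15 genes, 7 lay below 0, against 42.3% of all tests. Jam2, a junctional adhesion molecule, differed by 0.11 ± 0.08, and Cgnl1, a cytoplasmic plaque protein, by 0.12 ± 0.09. Cldn11, named after its values were seen, differed by -0.62 ± 0.15 (adjusted p = 0.0557), with all hypertensive arrays below all control arrays, and it passed in 7 of 19 alternatives. The others at an unadjusted p under 0.05, named in the same way, were the tricellular junction gene Marveld2 and the occludin gene Ocln (0.32 ± 0.13, adjusted p = 0.204). Marveld2 was well above background on 0 hypertensive and 3 control arrays, so its level is only bounded in hypertensive vessels. It was at least 1.87-fold lower there, taking the higher of its own signal and the dimmest detected signal on each array. Marveld2 was kept through the control arrays alone, so its p-values, including its place among the 3, are not read as support. None of 4 vascular connexins passed, with Gja1 at -0.33 ± 0.14 and Gja4 at -0.10 ± 0.17. Gja1 and the arterial connexin gene Gja5 (0.91 ± 0.29, adjusted p = 0.128, named after its values were seen) were at an unadjusted p under 0.05.

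Of 12 genes of Weibel-Palade bodies and the handling of von Willebrand factor, 1 fell and none rose, beside 1.91% lower and 2.61% higher among all tests. It was Angpt2, the stored ligand of the TIE2 receptor, with levels of 0.96 ± 0.14 in hypertensive and 1.49 ± 0.12 in control vessels (SD, n = 4 each) and a difference of -0.53 ± 0.10 (adjusted p = 0.0208). Its call was lost in 8 of 19 alternatives, 6 of them the omission of 1 array (hypertensive replicates 1, 2 or 3 or control replicates 1, 3 or 4), with adjusted p up to 0.0647. Vamp3, a vesicle fusion protein, differed by 0.09 ± 0.08. The endothelin gene Edn1 (-0.68 ± 0.26) and Stx3 (0.32 ± 0.12), named after their values were seen, were at an unadjusted p under 0.05 and did not pass after adjustment. Of 14 genes of the endoglin receptor complex and its targets none passed, with a median of -0.10. At an unadjusted p under 0.05 were 2 of the 14, against 20.3% of all tests. The receptor genes Tgfbr2 and Acvrl1 differed by -0.16 ± 0.10 and 0.13 ± 0.10. The BMP target gene Id1, named after its values were seen, differed by -0.57 ± 0.15 (adjusted p = 0.0747), and Id2 by -0.34 ± 0.12 (adjusted p = 0.146), these being the 2. Gdf2 and Bmp10, which encode ligands of endoglin, and Smad9 were not above background.

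None of 13 arterial and venous endothelial genes passed, with a median of 0.18. Of the 13, 10 lay above 0 and 3 below 0, against 42.3% of all tests below 0. Their mean level was -0.20 to 0.0042 in hypertensive and -0.36 to -0.24 in control arrays, with every hypertensive array above every control array. For each of the 13 genes taken singly the groups overlapped. Gja5 (0.91) and Aplnr (0.78) had the largest differences in that mean. The separation was not examined without them, so it is not read as a trait of the list as a whole. The Notch ligand gene Jag1 differed by 0.23 ± 0.10 and the venous factor gene Nr2f2 by 0.17 ± 0.11. Of the 13, 2 were at an unadjusted p under 0.05, against 20.3% of all tests. They were Gja5 and Aplnr, given above as named after their values were seen, and both passed with normexp. None of 4 adhesion molecules of activated endothelium passed, and none did so at an unadjusted p under 0.05, with Vcam1 at -0.14 ± 0.12 and Icam1 at -0.11 ± 0.13.

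**Figure D4:**
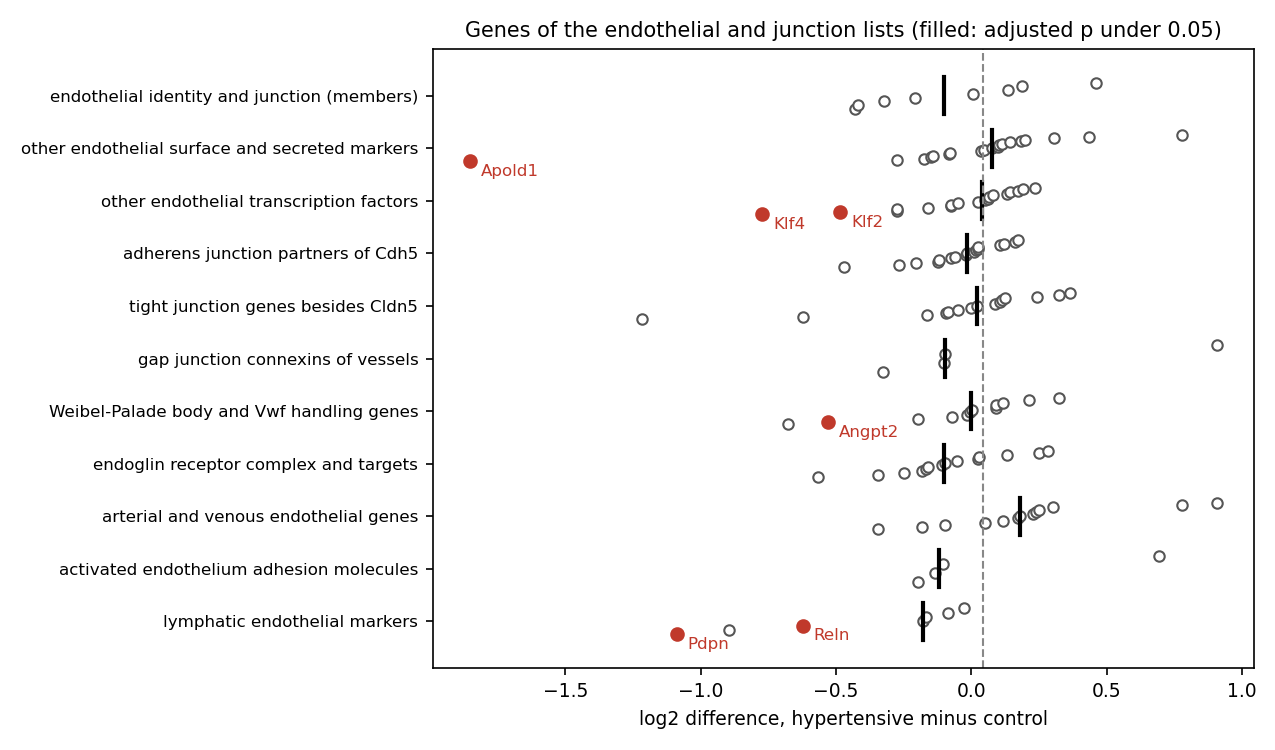
Log2 difference, hypertensive minus control, of each tested gene (points) in the endothelial and junction lists, with the list median as a black bar and the median of all tests as a dashed line. Filled points passed an adjusted p under 0.05 in limma, and these were Apold1, Klf4, Klf2, Angpt2, Pdpn and Reln, all lower in hypertensive vessels.

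Markers of lymphatic endothelium, a cell type that also uses Sox18 and Cldn5, had differences below 0 for all 7 tested genes, against 42.3% of all tests. Of the 7, 2 fell, where 1.91% of all tests were past the threshold and lower. Pdpn, which encodes podoplanin and is also made by some fibroblasts and mesothelial cells, had a level of 2.04, 2.06, 2.28 and 2.19 in hypertensive replicates 1 to 4, against 3.21, 3.33, 3.21 and 3.19 in control replicates 1 to 4. The 2 groups were far apart, with a difference of -1.09 ± 0.08 (adjusted p = 0.000172). Reln, which encodes reelin, had a level of 3.12, 3.03, 3.29 and 3.13 in hypertensive replicates 1 to 4, against 3.85, 3.57, 3.89 and 3.74 in control replicates 1 to 4. Its groups did not overlap either, with a difference of -0.62 ± 0.10 (adjusted p = 0.00982), and both calls held in all 19 alternatives. The mean level of the 7 genes was 2.16 to 2.63 in hypertensive and 2.84 to 2.98 in control arrays. Pdpn and Reln enter that mean, and the groups overlapped for each of the other 5 genes. The lineage factor gene Prox1 and the hyaluronan receptor gene Lyve1, named after their values were seen, differed by -0.17 ± 0.16 and -0.18 ± 0.16 (adjusted p = 0.587 and 0.560), with overlapping groups. The part of lymphatic endothelium in the Cldn5, Eng and Sox18 differences was not tested.

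Platelets carry Vwf, Pecam1 and Esam transcripts. None of 5 tested platelet and megakaryocyte markers passed. Of the 5, 2 (Pf4 and Clec1b) were at an unadjusted p under 0.05, against 20.3% of all tests. Their mean level was -2.82 to -2.50 in hypertensive and -2.35 to -2.13 in control arrays. Of the 5, 4 lay below 0, against 42.3% of all tests. The part of platelets in the Vwf, Pecam1 and Esam values was not tested. Pf4 differed by -0.44 ± 0.11 (adjusted p = 0.0557) and Clec1b by -0.99 ± 0.37, while Gp1ba, Gp5 and Ppbp were not above background. Of 10 macrophage markers, a cell type that also carries Pecam1, 1 fell and none rose, beside 1.91% lower and 2.61% higher among all tests. Mrc1 fell by -0.51 ± 0.12 (adjusted p = 0.0496), and by -0.25 with normexp. Its call was lost in 10 of 19 alternatives, 7 of them the omission of any 1 array but hypertensive replicate 4 (adjusted p up to 0.123). Lyz2 differed by 0.53 ± 0.14 (adjusted p = 0.0799). At an unadjusted p under 0.05 were 5 of the 10, against 20.3% of all tests. The others were Csf1r (-0.49 ± 0.12, adjusted p = 0.0557), Cd163 (-0.68 ± 0.17, adjusted p = 0.0599) and Adgre1 (-0.47 ± 0.15, adjusted p = 0.118), named after their values were seen. These 3 and Mrc1 all passed when the adipocyte covariate was added or hypertensive replicate 4 was left out, and the count ran between 0 and 4 over 19 alternatives. The list mean was 1.42 to 1.88 in hypertensive and 1.72 to 1.94 in control arrays, and Marco was not above background. Of 7 lymphocyte markers none passed and 3 were at an unadjusted p under 0.05, against 20.3% of all tests. They were Cd3d at -0.74 ± 0.18, Cd3g at -0.89 ± 0.25 and, named after its values were seen, Cd3e at -0.46 ± 0.19. The lymphocyte list means were -1.87 to -1.17 in hypertensive and -1.58 to -1.04 in control arrays. Cd3d and Cd3g both passed with normexp, with array weights, with the adipocyte covariate and without hypertensive replicate 4, and Cd3d alone with quantile normalization and among probes above background on all 8 arrays.

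Of 12 contractile smooth muscle markers 1 fell, where 1.91% of all tests were past the threshold and lower. It was Myl9 (-0.45 ± 0.10, adjusted p = 0.0481). That call was lost in 10 of 19 alternatives, 7 of them the omission of any 1 array but hypertensive replicate 3 (adjusted p up to 0.126). Mylk differed by 0.09 ± 0.15. Lmod1, a leiomodin gene named after its values were seen, differed by 0.63 ± 0.17 (adjusted p = 0.0812), with all hypertensive arrays above all control arrays, and passed with normexp. The list mean was 4.14 to 4.76 in hypertensive and 4.10 to 4.48 in control arrays. None of 8 pericyte markers passed, nor did any at an unadjusted p under 0.05, with Kcnj8 at -0.07 ± 0.10, Abcc9 at 0.0071 ± 0.15 and list means of 1.46 to 1.67 in hypertensive and 1.49 to 1.63 in control arrays. None of 10 fibroblast markers passed, with Col1a1 at -0.95 ± 0.45, Col1a2 at -0.03 ± 0.14 and list means of 4.64 to 5.18 in hypertensive and 5.05 to 5.54 in control arrays. Lum (-0.45 ± 0.13) and Dpp4 (-0.83 ± 0.29), named after their values were seen, were the 2 fibroblast markers at an unadjusted p under 0.05, against 20.3% of all tests.

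None of 10 white adipocyte markers passed, nor did any at an unadjusted p under 0.05, with Fabp4 at 0.93 ± 0.49 and Cfd at 0.01 ± 0.38, and Plin1 was not above background. Their mean level was 1.92 in hypertensive replicate 4, while replicates 1 to 3 of that group lay between -1.57 and -0.33 and the control arrays between -1.07 and 0.13. Hypertensive replicate 4 was also the array in which Sox18 lay among the controls. With the white adipocyte mean as a covariate, the Sox18 difference was -0.48 (adjusted p = 0.0476). That covariate mostly sets hypertensive replicate 4 apart, so the fit cannot tell adipocyte content from any other trait of that array. None of 4 brown adipocyte markers passed, with Cpt1b at 0.48 ± 0.21 (the 1 gene at an unadjusted p under 0.05), Cidea at -0.29 ± 0.26 and list means of -1.91 to -1.62 in hypertensive and -2.03 to -1.67 in control arrays, and Ucp1 and Elovl3 were not above background.

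None of 8 nerve and Schwann cell markers passed, with S100b at 0.99 ± 0.29, Mbp at 0.45 ± 0.22 and list means of -1.02 to -0.74 in hypertensive and -1.42 to -0.96 in control arrays. S100b and Sox10 (0.49 ± 0.13, named after its values were seen) were at an unadjusted p under 0.05, and Cdh19 and Dbh were not above background. Of 5 erythroid markers Epb42 rose (0.74 ± 0.12, adjusted p = 0.00874, and 0.39 with normexp), with Hba-a1 at -0.29 ± 0.37, Alas2, named after its values were seen, at -0.80 ± 0.34 (unadjusted p under 0.05), list means of -1.31 to 0.08 in hypertensive and -1.04 to -0.54 in control arrays, and Slc4a1 not above background. Of 7 skeletal muscle markers Myh1 rose (2.28 ± 0.50, adjusted p = 0.0397, and 0.83 with normexp), with Tnnt3 at -0.14 ± 0.16, list means of -2.22 to -1.65 in hypertensive and -2.56 to -2.18 in control arrays, and Myh4 not above background. Myh1 was well above background on 4 hypertensive and 3 control arrays, so its difference rests on dim control signals. At an unadjusted p under 0.05 were 3 of the 7, against 20.3% of all tests. The others were Myh2 (0.73 ± 0.18, adjusted p = 0.0552) and Acta1 (-0.42 ± 0.16, adjusted p = 0.191), named after their values were seen and both without overlap of the groups. The Myh1 call was lost in 10 of 18 alternatives, 7 of them the omission of any 1 array but hypertensive replicate 2 (adjusted p up to 0.0983). Of 4 mesothelial markers Krt8 fell (-0.87 ± 0.14, adjusted p = 0.00867, and -0.56 with normexp) and Upk1b rose (1.51 ± 0.35, adjusted p = 0.0497, and 0.51 with normexp). Among all tests, 1.91% were past the threshold and lower, and 2.61% were past it and higher. Upk1b too was dim, well above background on 4 hypertensive and 3 control arrays. Lrrn4 (0.29 ± 0.12), named after its values were seen, was the third gene of the list at an unadjusted p under 0.05. The Krt8 call was lost with the replicate block (adjusted p = 0.0534) and the Upk1b call in 12 of 18 alternatives, including the omission of any 1 array (adjusted p up to 0.104). The mesothelial list means were -2.95 to -2.38 in hypertensive and -2.82 to -2.66 in control arrays, and Msln and Krt19 were not above background. The part of these cell types in the endothelial differences was not tested.

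**Figure D5:**
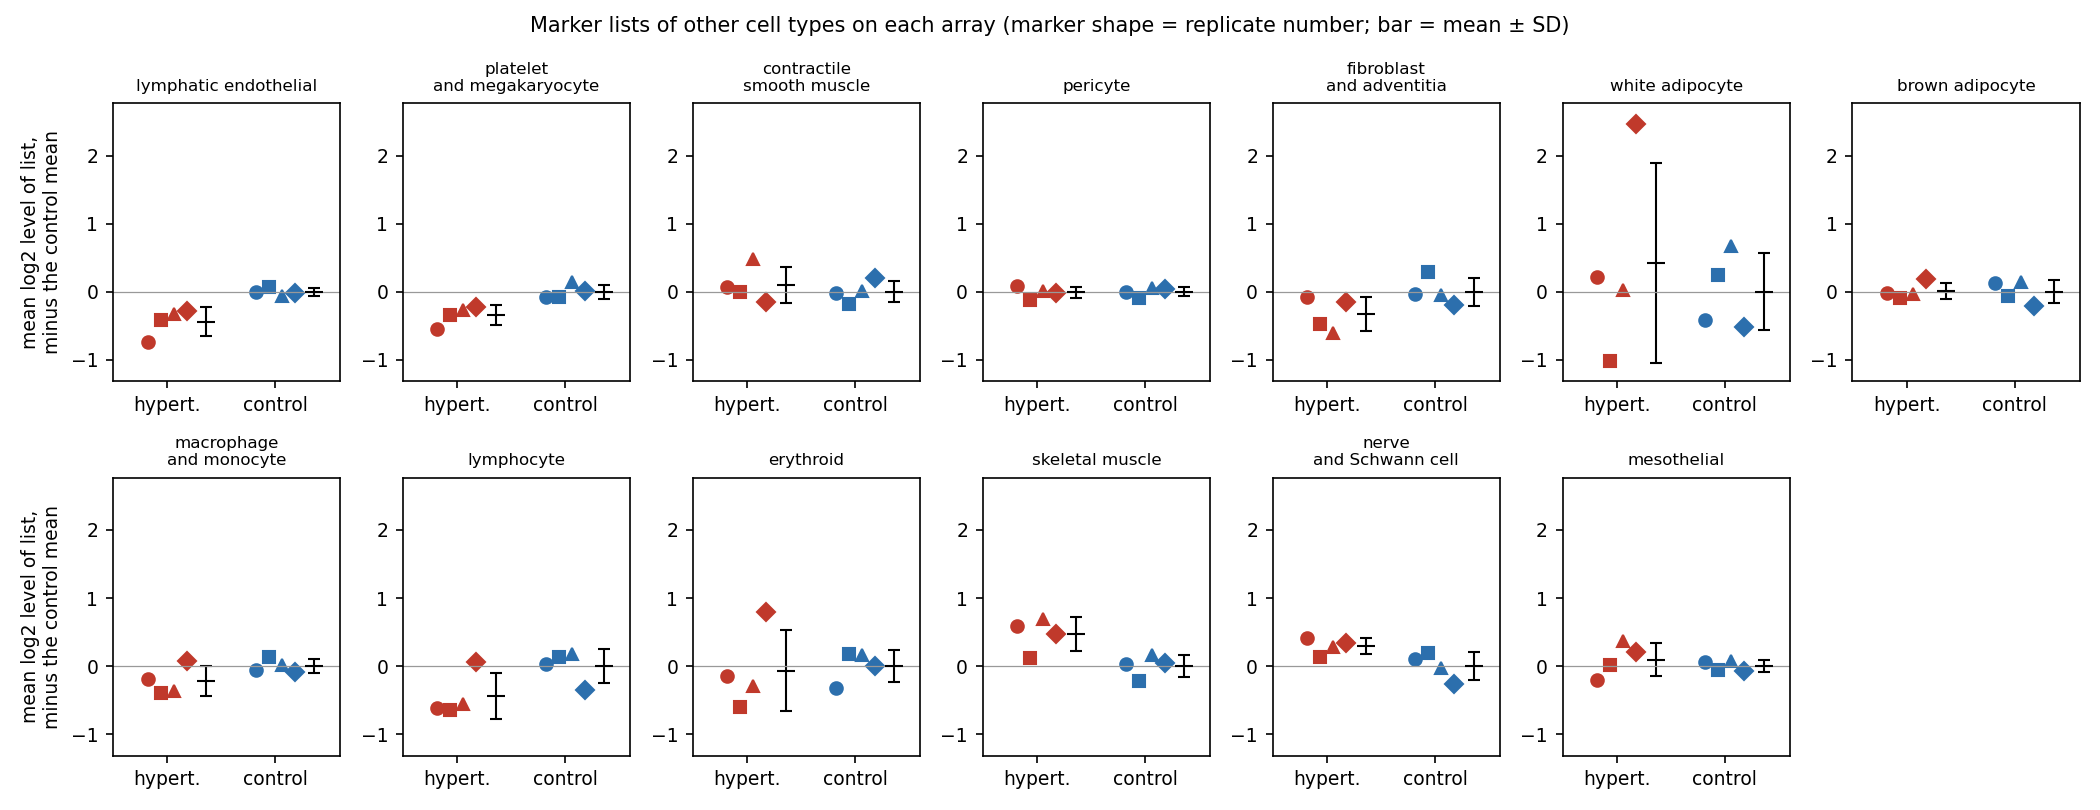
Mean log2 level of each marker list of another cell type on each array, minus the control mean (vertical axes, same range in all panels), for 4 hypertensive arrays (left, red) and 4 control arrays (right, blue), with the mean ± SD as bars and the replicate number as marker shape. The lymphatic and platelet lists have all hypertensive arrays below all control arrays, although taken singly only Pdpn, Reln and Pf4 of their genes do. Hypertensive replicate 4 stands far above the other 7 arrays in the white adipocyte list.

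Over the whole array, 641 tests were higher and 470 lower in hypertensive vessels (57.7% higher among those past the threshold, 47.4% with quantile normalization and 39.3% with median centring). The 75th percentile of processed signal was 357 to 478 in hypertensive and 405 to 503 in control arrays, and 58.7% to 63.2% of probes in hypertensive and 59.5% to 64.1% in control arrays were well above background. The number of arrays limits the precision. All 8 arrays lay on 1 slide scanned in 1 session, per the file headers. The hypertensive arrays lay in 1 row of the slide and the control arrays in the other, so slide row and group cannot be told apart. Same-numbered arrays shared a slide column. Hypertensive replicate 4 stood apart on the second principal component, with a score of -44.6 against -12.0 to 24.9 for the other 7 arrays.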

How the data were processed

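Total RNA (100 ng per sample) was labelled with Cy3 and hybridised to a rat oligonucleotide array, 1 colour, per the labels' protocols. The scanner files hold spot intensity, background-subtracted and detrended by Agilent Feature Extraction, version 10.7.1.1 per the file headers and 12.1.1.1 per the submitters' processing notes. The deposited value table holds a linear ratio, which matched processed intensity over the array's 75th percentile within 5% for every probe above 1. Its column medians were 0.101, 0.093, 0.097 and 0.090 in hypertensive and 0.092, 0.089, 0.086 and 0.091 in control replicates 1 to 4. It is not centred on genes, and it was an alternative only.

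Log2 processed signal was averaged over the spots of a probe, leaving out spots marked as outliers where another remained, and the array's 75th percentile was subtracted. Probes well above background (on 50% or more of their spots) on at least 3 of 4 arrays of a group were kept, 27822 of 45598. Accessions without version were matched to the RefSeq table of rat genes (GRCr8), naming 46.6% of probes. Where several kept probes read 1 gene, the brightest stood for it. The groups came from the sample titles and were compared with limma 3.58.1 in R 4.3.3, with group as the only term, a threshold of an adjusted p under 0.05 over 24552 tests, and 95% intervals. The fit was tested on simulated data. 

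The 10 genes and the other lists were chosen with earlier results of these data known. The genes named are all members and, from each list, up to 4 past the threshold with the smallest p, filled up to 2 by the highest level. Genes named after their values were seen are marked so. The alternatives were normexp correction (offset 50, on median spot signals, since mean signals are not among the columns), quantile and median scaling, the value table, the filter, the probe rule, outlier spots, array weights, the replicate block, an adipocyte covariate and the omission of each array.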

Additional observations from a re-analysis of the deposited data

Results flagged for a closer look

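In each group of 4 arrays, an array was singled out where its gap to the nearest other, as a share of the group's range, passed Dixon's critical value (chance passes about 1 in 20 such groups). Of 16 groups examined for the 8 tested endothelial genes, 2 had such an array. Hypertensive replicate 3 had a Vwf level of 5.82 on the brighter probe, while replicates 1, 2 and 4 lay between 6.46 and 6.57, and its second Vwf probe read 2.26, within the range of the other arrays. Hypertensive replicate 1 had an Emcn level of 2.37, while replicates 2 to 4 of its group lay between 2.97 and 3.04.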

How the results depend on the processing

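The differences of Pecam1, Vwf, Cldn5, Eng, Emcn, Esam and Sox18 kept their direction under every alternative tried (20 each, 21 for Vwf), but with median centring that of Esam was 0.048 and that of Pecam1 0.10, and with the mean of both probes that of Vwf was 0.28. That of Cdh5 turned to -0.026 with normexp correction, -0.0059 with quantile normalization and -0.081 with median centring, and ran between -0.11 and 0.11 with 1 array left out. The endothelial genes past the threshold numbered 2 with normexp (Cldn5 at -0.45 and Eng at -0.34), 1 with quantile normalization (Cldn5 at -0.45), 1 with array weights (Sox18 at -0.45), 1 with the adipocyte covariate (Sox18 at -0.48), and 0 to 1 with 1 array left out. Leaving out 1 array gave -0.54 to -0.32 for Sox18, 0.39 to 0.64 for Vwf and, relative to Pecam1, -0.15 to 0.070 for Esam. The count over all tests was 1111, but 1857 with normexp, 641 with no filter on dim probes, where 41047 tests were made, and 629 to 1473 with 1 array left out. The count in the marker lists ran up to 4 for macrophage, 3 for endothelial transcription factor and 2 for lymphocyte, tight junction, arterial and venous, fibroblast, nerve, smooth muscle, skeletal muscle, erythroid, mesothelial and other endothelial markers over 19 alternatives. The tight junction count of 2 included Marveld2, which was kept through the control arrays alone. The cause of these moves was not tested.

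With the replicate number as a block the count over all tests was 675 and no endothelial gene of the 8 passed. The deviations of same-numbered arrays correlated at 0.206, 0.115, -0.0036 and -0.148 across tests for numbers 1 to 4. For numbers 1 and 2 no control array of another number correlated more highly with the hypertensive array, and for numbers 3 and 4, 2 did. With this mixed result the numbers were not taken to pair animals. Same-numbered arrays also shared a slide column, so the block cannot tell replicate number from slide column. With the block, the 4 changes relative to Pecam1 had an adjusted p of 0.175 each in an exact sign-flip permutation test of 4 pairs. Vwf, which went the other way, had 0.175 too. With 4 pairs such a test cannot give a p under 0.05, so it could not pass any gene.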
